A study of Mus musculus with 2 samples.

Results

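Integrin and cadherin genes of cultured primordial germ cells (PGCs) were examined in control and Klf9-OE cells. All gene symbols of the deposited expression files that follow the naming of integrin alpha subunits, integrin beta subunits or numbered cadherins were taken, and 49 genes were found among 23314 symbols shared by both files. They were 18 integrin alpha genes, 8 integrin beta genes and 23 cadherin genes. Of the cadherins, 5 were type I classical cadherins and 13 were type II classical cadherins. The remaining 5 (Cdh13, Cdh16, Cdh17, Cdh23 and Cdh26) share the cadherin name but are not classical cadherins, so the name "classical cadherins" covers the set only in part. PGCs with intense GFP were sorted from the genital ridges of male and female E13.5 embryos of MCH females mated with Oct4-deltaPE-GFP males, infected at an MOI of 5 and cultured for 1 day on gelatin. The Klf9-OE cells received a CSII-EF lentivirus carrying the Klf9 coding region, and the control cells received a control lentivirus whose insert is not specified for this experiment. The sample labels place bFGF in the medium of both groups, whereas the paper describes the RNA-seq culture as lacking it. Each group was 1 library, so no difference between the groups has a replicate check and no p-value was calculated.

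Integrins are receptors made of 1 alpha and 1 beta chain. They hold cells to laminin, fibronectin, vitronectin, collagen or to ligands on other cells, and they pass force and signals to the actin cytoskeleton through talin, kindlin and integrin-linked kinase. Classical cadherins bind cadherins on neighbouring cells and are tied to actin by beta-catenin and alpha-catenin. PGCs carry E-cadherin, and they need the integrin beta chain encoded by Itgb1 to settle in the gonads.

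Levels are given as RPKM (mapped reads scaled by library size and by the length of the exons), with the 95% interval that Cufflinks gave for the value within that library. Differences are given as log2(RPKM + 0.1) in Klf9-OE minus control. For weakly expressed genes these come out smaller than the ratio of the RPKM values, which for the weakest rests on few reads. A gene was called 2-fold higher or lower at a difference of at least 1 on this scale. Klf9 itself was at 2.27 RPKM in control cells (1.97 to 2.57) and at 80.8 in Klf9-OE cells (77.0 to 84.5). At equal RPKM, the intervals implied 1.21 times as many reads in the Klf9-OE library as in the control library. The Klf9-OE file held 15127 loci without a gene name and the control file 6482. The libraries also differed in the reads implied by the intervals. Those implied for weakly expressed genes, counted where they came to 1 to 9 within 0.06 of a whole number, were an even number in 89.0% of 1767 cases in Klf9-OE and in 36.4% of 2132 cases in control. Why is not known. Implied reads, among them the ratio of 1.21, were not adjusted for it and are no sure measure of sequencing depth. Overlap was therefore also read after the Klf9-OE intervals were widened by the square root of 2. That is the width they would have if each read had been counted 2 times. Of the 12 members whose intervals did not overlap, Cdh24 and Cdh26 then did.

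Of the 49 genes, 48 were above 0 in at least 1 library, and Itgb4 was listed at 0 in both. A mean RPKM of at least 1 over both libraries was reached by 22 of them, 9 integrin alpha, 4 integrin beta and 9 cadherin genes. The 2-fold call upward was met by 3 of the 48 (Cdh5, Cdh23 and Cdh26), against 4.52% of the 18737 genes above 0 in at least 1 library. None was 2-fold lower, against 4.0% of all genes. Intervals did not overlap for 7 members that were higher, against 11.2% of all genes, and for 5 that were lower, against 14.4%. Of the 22 members with a mean RPKM of at least 1, 1 was 2-fold higher and none 2-fold lower, where 3.24% and 3.13% of all genes at this level were. Of these 22, intervals did not overlap for 4 higher and 5 lower members, against 14.5% and 20.1% of all such genes. The median difference was 0.0014 over the 48 members and -0.015 over all genes. Over the 25 integrin genes above 0 the median was 0.15, and over the 23 cadherin genes it was -0.18. The cadherin median was the value of Cdh9, which rests on 1 implied read, and it was -0.07 over the cadherins with a mean RPKM of at least 1. The difference of each member is drawn beside the quartiles of all genes.

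**Figure D1:**
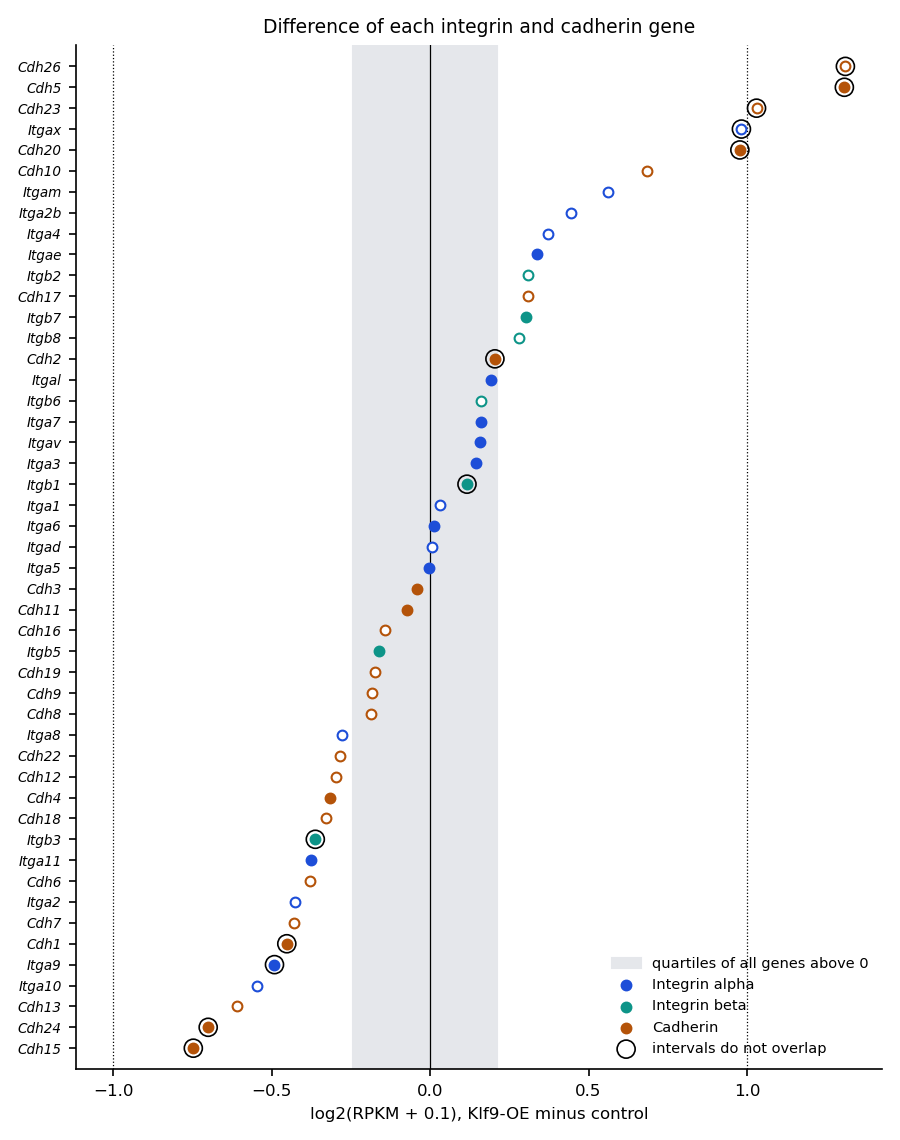
Difference in log2(RPKM + 0.1), Klf9-OE minus control (x axis), of the 48 integrin and cadherin genes above 0 in at least 1 library, ordered by size. Filled points have a mean RPKM of at least 1, open points a lower mean, circled points have Cufflinks 95% intervals that do not overlap, dotted lines mark 2-fold, and the grey band spans the quartiles of all 18737 genes. Cdh26, Cdh5 and Cdh23 lie beyond the upper dotted line and no gene lies beyond the lower one.

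The integrin beta genes were led in both libraries by Itgb1 (chromosome 8, 128685654 to 128733579 of mm10), the shared partner of most alpha chains. Itgb1 was at 55.2 RPKM in control cells (53.8 to 56.7) and 59.9 in Klf9-OE cells (58.5 to 61.2). It was thus 8.43% higher in Klf9-OE, with intervals that did not overlap and that implied 5976 and 7782 reads. Itgb3 (chromosome 11, 104608000 to 104670471) encodes the beta chain of a vitronectin and fibrinogen receptor. It went the other way, from 13.7 RPKM (12.9 to 14.4) to 10.6 (9.96 to 11.2), a difference of -0.36. Both calls held with the widened intervals.

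Itgb5, whose product pairs with the alpha chain of Itgav to bind vitronectin, was at 8.51 RPKM in control (7.78 to 9.24) and 7.6 in Klf9-OE (6.97 to 8.23). Itgb7, the beta chain of lymphocyte homing receptors, was at 2.41 (2.01 to 2.81) and 3.0 (2.58 to 3.42). The intervals of both genes overlapped between the libraries. The other beta genes were near or at 0. Itgb2, the beta chain of leukocyte integrins, was at 0.451 RPKM in control and 0.582 in Klf9-OE. Itgb8 was at 0.0502 and 0.0823, and Itgb6 at 0.00462 and 0.0170. Itgb4, which with the product of Itga6 forms the laminin receptor of hemidesmosomes, was listed at 0 in both libraries. The order Itgb1, Itgb3, Itgb5 and Itgb7 was the same in both libraries, and no neighbours in it had intervals that overlapped within a library.

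Among the alpha genes, the 3 that encode laminin receptor chains were all above a mean RPKM of 1 and differed little between the libraries. Itga6 (chromosome 2, 71786939 to 71858427) had the highest level of all alpha genes, 15.2 RPKM in control (14.4 to 16) and 15.3 in Klf9-OE (14.6 to 16). Itga3 was at 2.97 (2.64 to 3.31) and 3.30 (2.97 to 3.62). Itga7, best known from muscle, was at 0.980 (0.781 to 1.18) and 1.11 (0.914 to 1.30). All 3 had overlapping intervals, and their differences lay between 0.012 and 0.16.

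The genes of the receptors that recognise the RGD sequence of fibronectin and vitronectin had the next highest summed RPKM, 9.09 in control and 9.75 in Klf9-OE, after 19.1 and 19.7 for the laminin receptor chains. Itga5, the fibronectin receptor chain, was at 4.42 RPKM in control (3.99 to 4.85) and 4.41 in Klf9-OE (4.01 to 4.81). Itgav was at 3.76 (3.47 to 4.04) and 4.21 (3.93 to 4.48), with intervals that overlapped narrowly. Itga2b, the platelet chain that pairs with that of Itgb3, was below 1 RPKM in both libraries, at 0.663 and 0.939, and Itga8 was at 0.254 and 0.192. None of these 4 genes had intervals that separated the libraries.

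Of the remaining alpha genes, Itga9 (chromosome 9, 118606709 to 118901003), a receptor chain for tenascin and VCAM1, was lower in Klf9-OE. It was at 1.23 RPKM in control (1.06 to 1.41) and 0.849 in Klf9-OE (0.721 to 0.978), a difference of -0.49 that held with the widened intervals. Its relative Itga4 was at 0.309 and 0.430. Itga11, a collagen receptor chain of fibroblasts, was at 1.19 RPKM (0.959 to 1.42) and 0.893 (0.743 to 1.04), with overlapping intervals. The other collagen receptor chains, Itga1, Itga2 and Itga10, were at most 0.585 RPKM in control and 0.581 in Klf9-OE.

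The 5 leukocyte alpha genes all had a difference above 0, from 0.0048 for Itgad to 0.98 for Itgax. That of Itgae rests on an imprecise control estimate, given below. Of all 25 integrin genes listed above 0 in at least 1 library, 17 had a difference above 0. Itgal was at 1.26 RPKM in control (1.06 to 1.46) and 1.45 in Klf9-OE (1.2 to 1.71). Itgax, known as CD11c of dendritic cells and macrophages, was at 0.242 (0.142 to 0.342) and 0.576 (0.436 to 0.717), and it was the only alpha gene higher in Klf9-OE with intervals that did not overlap. Itgam, known as CD11b, was at 0.130 (0.0616 to 0.198) and 0.239 (0.156 to 0.322), which overlapped. Itgam and Itgax lie 11.1 kb apart on chromosome 7, and Itgad lies 23.3 kb beyond Itgax. Macrophage and leukocyte markers went both ways, with a list median of -0.62. Csf1r was higher in Klf9-OE without overlap, at 0.307 RPKM and 1.18, and Lyz2, C1qb and Spi1, listed at 0 in Klf9-OE, were lower without overlap. A listed 0 carries an interval from 0 to 0, so any control interval that lies above 0 meets this call. Cd68 (3.69 and 4.11) and Aif1 (0.108 and 0.266) were higher with intervals that overlapped. Ptprc (0.0584 and 0.0239), Cx3cr1 (0.0867 and 0.0349) and Adgre1 (0.0836 and 0.0196) were lower with overlap. So were C1qa (0.248 and 0.0678) and Tyrobp (0.602 and 0.329). The part of such cells in the difference of Itgax was not tested. Itgae, the chain of an E-cadherin receptor of lymphocytes, was at 2.66 RPKM in control with an interval from 0 to 10.6, and at 3.38 (2.59 to 4.17) in Klf9-OE. Its control estimate is therefore too imprecise to compare. The locus of Gsg2, at 11.7 RPKM in control and 13.1 in Klf9-OE, lies inside that of Itgae, and the library kit does not mark strand.

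**Figure D2:**
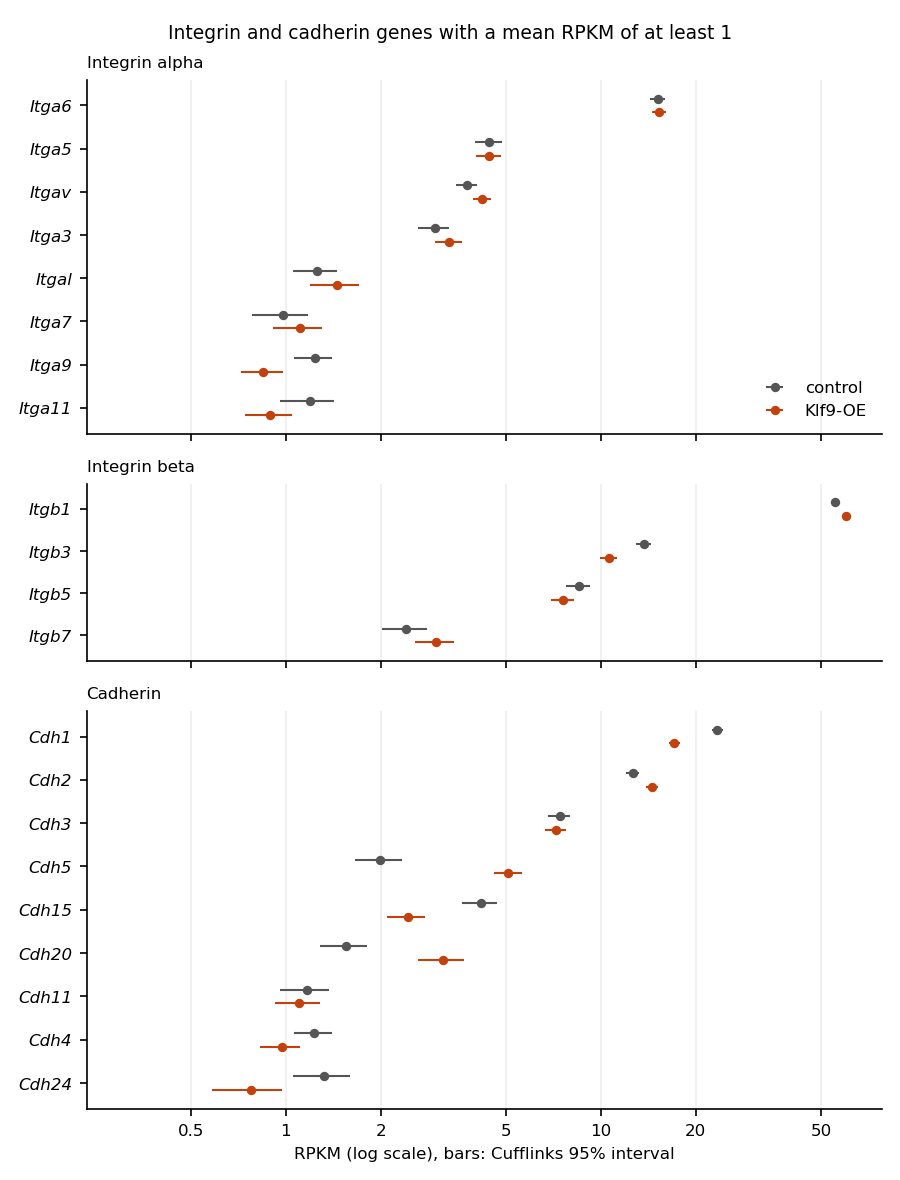
RPKM (x axis, log scale) in the control library (grey) and the Klf9-OE library (orange) of the members with a mean RPKM of at least 1, by family, with bars for the Cufflinks 95% interval. Itgae is left out because its control interval reaches 0. Intervals of Itgb1, Cdh2, Cdh5 and Cdh20 lie higher in Klf9-OE, those of Itgb3, Itga9, Cdh1, Cdh15 and Cdh24 lower, and the rest overlap.

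All 5 type I cadherins had a mean RPKM of at least 1. Cdh1 (chromosome 8, 106603368 to 106670246), which encodes E-cadherin, was the highest cadherin of both libraries and was lower in Klf9-OE. It was at 23.4 RPKM in control (22.5 to 24.3) and 17.1 in Klf9-OE (16.4 to 17.8), a difference of -0.45. Cdh2, which encodes N-cadherin, was at 12.6 (12.0 to 13.3) and 14.6 (13.9 to 15.2), a difference of 0.20. Cdh3, which encodes P-cadherin and whose locus ends 46.5 kb before that of Cdh1, was at 7.40 (6.81 to 7.98) and 7.19 (6.65 to 7.73), with overlapping intervals. Cdh1 and Cdh2 thus had intervals that separated the libraries in opposite directions, also when widened, while those of Cdh3, the neighbour of Cdh1 on chromosome 8, overlapped.

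Cdh15 (chromosome 8, 122848374 to 122867397), the M-cadherin of muscle, had the lowest difference of the 48 members on the log2(RPKM + 0.1) scale. It was at 4.16 RPKM in control (3.62 to 4.69) and 2.44 in Klf9-OE (2.10 to 2.77), 1.71-fold lower, with intervals that did not overlap even when widened. Cdh4, the R-cadherin gene, was at 1.23 (1.06 to 1.40) and 0.970 (0.831 to 1.11), which overlapped.

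Among the 13 type II cadherins, 4 had a mean RPKM of at least 1. Cdh5 (chromosome 8, 104100856 to 104144502 in the control file), which encodes the VE-cadherin of endothelial junctions, was at 2.0 RPKM in control (1.66 to 2.33) and 5.09 in Klf9-OE (4.57 to 5.60). This was a 2.55-fold difference, and Cdh5 was the only member called 2-fold higher under every setting tried except a threshold of 4-fold. Its locus starts 438 bp earlier in the control file, and that of Gm29682 overlaps it. In control cells Cdh5 was below Cdh15, and in Klf9-OE cells above it, with intervals that did not overlap in either library. Cdh20 (chromosome 1, 104768819 to 104995481) was at 1.55 RPKM (1.29 to 1.82) and 3.16 (2.63 to 3.68), a ratio of 2.03 and a difference of 0.98, just short of the 2-fold call. With 0.01 in place of 0.1, with no pseudocount, or with RPKM rescaled to the same sum, it was called. The intervals of Cdh20 implied 138 reads in control and 147 in Klf9-OE. This is far fewer in Klf9-OE than its RPKM ratio and the read ratio of 1.21 would give, so its difference is uncertain. Implied reads of Itgb3, Cdh5, Cdh15, Cdh23, Itgal and Itga11 also departed from their RPKM ratios, by less. So did those of some further members with a mean RPKM below 1. Those of Itgal were 158 in control and 128 in Klf9-OE, and those of Itga11 106 and 141, so their values call for the same caution.

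Cdh11, typical of mesenchyme, was at 1.17 RPKM in control (0.960 to 1.37) and 1.10 in Klf9-OE (0.923 to 1.29). Cdh24 (chromosome 14, 54631337 to 54641364 in the control file) was at 1.33 (1.05 to 1.60) and 0.778 (0.583 to 0.974), a difference of -0.70. Its intervals overlapped once those of Klf9-OE were widened. The estimate also rests on loci that differ between the files, since the Klf9-OE locus starts 655 bp later. A locus without a gene name lies in the stretch that it leaves out, from 54631338 to 54631526, at 15.6 RPKM (6.57 to 24.7) in Klf9-OE only, within an untranslated part of an exon of Cdh24. The part of this split in the lower RPKM of Cdh24 was not tested.

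The remaining 9 type II cadherins were at most at 0.298 RPKM, the level of Cdh10 in Klf9-OE. Cdh6, Cdh7, Cdh9 and Cdh19 were at 0.0127 to 0.0346 RPKM in control and listed at 0 in Klf9-OE, and the interval behind each control value implied 1 to 3 reads. They met the 2-fold call downward with a pseudocount of 0.01 or none, and not with 0.1. Of the other cadherins, Cdh23, a part of the tip links of hair cells, was at 0.374 RPKM in control (0.271 to 0.476) and 0.867 in Klf9-OE (0.713 to 1.02). Cdh26 was at 0.0267 (0 to 0.0801) and 0.214 (0.113 to 0.315), a difference of 1.31 that rests on about 1.00 implied read in control and whose intervals overlapped when widened. The loci of 4632428N05Rik and Gm17455 overlap that of Cdh23, and without strand their reads cannot be told apart. Cdh23 and Cdh26 were singled out after their values were seen, as were the other members named below a mean RPKM of 1. Over the 27 members below a mean of 1, RPKM ran from 0 to 0.663 in control and from 0 to 0.939 in Klf9-OE.

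**Figure D3:**
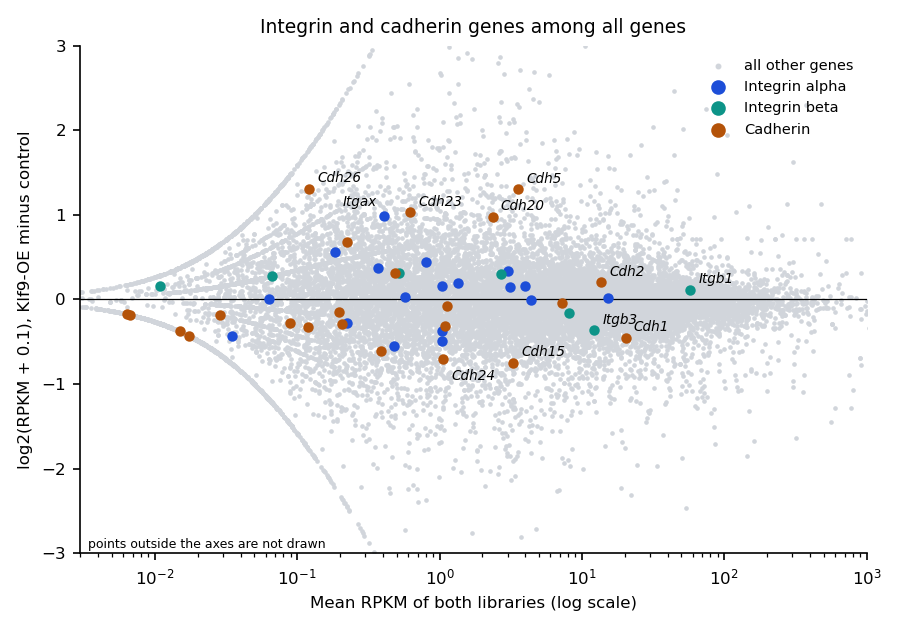
Mean RPKM of both libraries (x axis, log scale) against the difference in log2(RPKM + 0.1), Klf9-OE minus control (y axis), with other genes in grey and integrin alpha, integrin beta and cadherin genes in colour. Cdh5 and Cdh20 lie above most genes of their level, and the curved edges are genes listed at 0 in one of the libraries.

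Since RPKM is scaled by length, levels can be summed within a family. The summed RPKM of the cadherins was 57.1 in control and 55.1 in Klf9-OE, that of the alpha genes 36.5 and 38.3, and that of the beta genes 80.3 and 81.8. Within the cadherins, the share of Cdh1 was 41.0% in control and 31.0% in Klf9-OE, and that of Cdh2 was 22.1% and 26.4%. The ratio of Cdh1 to Cdh2, which no scaling between libraries can alter, was 1.86 in control and 1.17 in Klf9-OE. With the bounds of both genes set against each other, it lay between 1.70 and 2.03 in control and between 1.08 and 1.28 in Klf9-OE. In the same way the ratio of Itgb3 to Itgb1 was 0.247 in control (0.228 to 0.268) and 0.177 in Klf9-OE (0.163 to 0.192). The ratio of Itga6 to Itgb1 was 0.275 (0.254 to 0.297) and 0.256 (0.238 to 0.274), with ranges that overlapped. A ratio shows unequal change and not which gene changed.

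**Figure D4:**
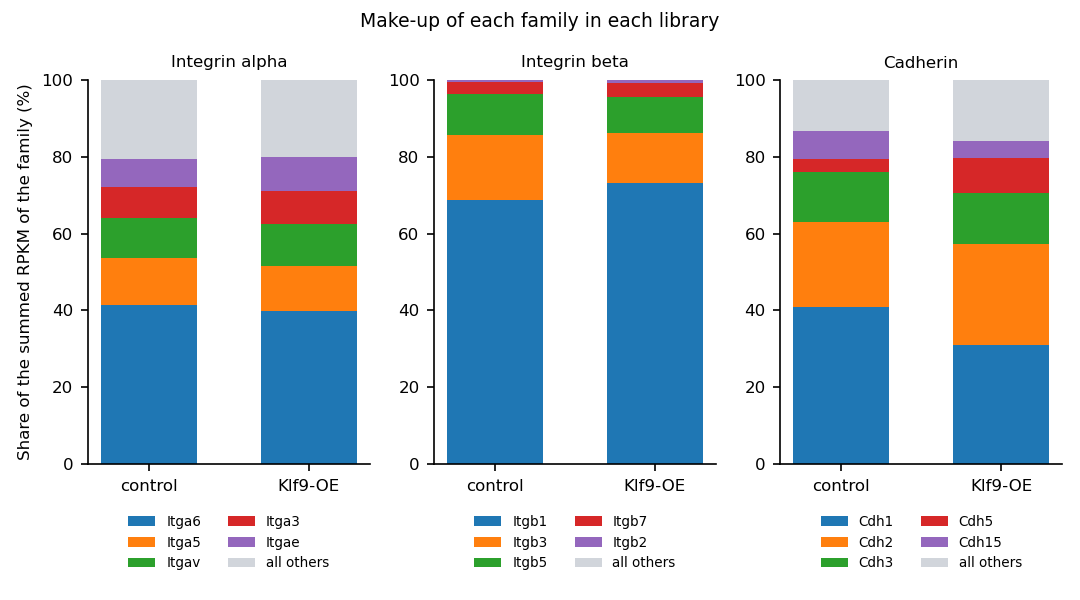
Share of the summed RPKM of each family (y axis, percent) taken by its 5 leading genes and by all others, in the control and the Klf9-OE library. The share of Cdh1 goes from 41.0% to 31.0%, that of Itgb1 from 68.8% to 73.2%, and that of Itga6 from 41.6% to 39.9%.

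The members are unevenly spread over the genome. Chromosome 8 holds 8 cadherin genes and Itgb1, and chromosome 15 holds 5 cadherin genes, all of type II. The cadherins on chromosome 15 were all at or below 0.298 RPKM, and none had intervals that separated the libraries. On chromosome 8, Itgb1 and Cdh5 were higher and Cdh1 and Cdh15 were lower, where 11.2% and 14.4% of all genes were.

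Promoter windows from RefSeq (build GRCm38.p6, the assembly of mm10) covered 31 of the 49 genes, in 35 windows. Those of Cdh20 and Cdh23, which were higher, of Cdh15 and Cdh24, which were lower, and of Itgb1, the most abundant member, are shown to set genes of opposite direction side by side. Of the other members with intervals that did not overlap, Itga9, Itgax and Cdh26 had windows that are not shown, and Cdh1, Cdh2, Cdh5 and Itgb3 had none in the table. Krüppel-like factors and Sp factors bind GC boxes and CACCC boxes. The GC box was searched as GGGCGG. The other box was searched by the letters of its name, also on both strands. Matches to either are in capitals, joined where they overlap. Each sequence is the 250 bases before the RefSeq start, which for Cdh20 lies upstream of the start in the files, and is written 5′ to 3′ on the strand of the gene. They lie at chr1:104768270-104768519 (forward strand) for Cdh20, chr10:60696491-60696740 (reverse strand) for Cdh23, chr8:122848124-122848373 (forward strand) for Cdh15, chr14:54641365-54641614 (reverse strand) for Cdh24 and chr8:128685404-128685653 (forward strand) for Itgb1.
Cdh20: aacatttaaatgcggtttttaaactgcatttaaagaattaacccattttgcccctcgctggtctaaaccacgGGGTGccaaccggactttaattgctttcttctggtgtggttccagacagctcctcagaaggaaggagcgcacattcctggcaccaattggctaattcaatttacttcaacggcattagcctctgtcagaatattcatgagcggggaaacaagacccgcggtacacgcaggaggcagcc
Cdh23: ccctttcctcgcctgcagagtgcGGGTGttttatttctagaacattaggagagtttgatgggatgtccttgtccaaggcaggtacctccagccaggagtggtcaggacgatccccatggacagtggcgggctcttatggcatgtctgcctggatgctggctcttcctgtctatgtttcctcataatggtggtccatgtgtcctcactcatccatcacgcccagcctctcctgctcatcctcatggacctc
Cdh15: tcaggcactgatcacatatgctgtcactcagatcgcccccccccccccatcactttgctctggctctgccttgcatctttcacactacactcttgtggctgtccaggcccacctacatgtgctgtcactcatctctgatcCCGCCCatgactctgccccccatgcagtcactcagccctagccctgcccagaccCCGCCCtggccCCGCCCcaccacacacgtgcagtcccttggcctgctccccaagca
Cdh24: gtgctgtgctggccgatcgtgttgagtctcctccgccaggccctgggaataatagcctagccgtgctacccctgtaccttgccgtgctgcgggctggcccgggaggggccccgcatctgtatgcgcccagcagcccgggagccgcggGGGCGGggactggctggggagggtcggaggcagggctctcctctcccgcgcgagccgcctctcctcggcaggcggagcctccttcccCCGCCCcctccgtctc
Itgb1: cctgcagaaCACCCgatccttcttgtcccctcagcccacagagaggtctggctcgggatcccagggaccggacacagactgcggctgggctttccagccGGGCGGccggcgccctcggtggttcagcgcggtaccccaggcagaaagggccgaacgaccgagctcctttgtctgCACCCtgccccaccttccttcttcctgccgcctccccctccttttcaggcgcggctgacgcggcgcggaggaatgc

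Cdh15 had 3 GC box matches and Cdh24 had 2, and neither had a CACCC match. Cdh20 and Cdh23 each had 1 CACCC match and no GC box match. Itgb1 had 1 GC box match and 2 CACCC matches. Itga9, which was lower, had 1 CACCC match and no GC box match, and Itgax and Cdh26, which were higher, had neither. The window of Itga9 (chr9:118711442-118711691) lies inside the locus measured for Itga9 and not before its start. A GC box match was found in 12 of the 35 member windows (34.3%) and in 32.7% of 32851 windows of all genes. A CACCC match was found in 20 of the 35 (57.1%) and in 52.0% of all. Windows covered 5 of the 7 higher members and 3 of the 5 lower ones. The GC box was in 1 of the 5 and in 2 of the 3, and CACCC in 3 of the 5 and in 1 of the 3. A match describes the letters of the window and is not evidence of binding.

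Genes that work with the members were read from lists that were chosen with earlier results of these data known. Listed genes that were not among the compared symbols were not counted. Among them were Zeb2 of the cadherin repressors and Pdgfra of the fibroblast markers. Gp1bb, Hba-a1 and Hbb-bs of the megakaryocyte and erythroid markers were others. Over all genes, intervals did not overlap for 11.2% that were higher and 14.4% that were lower. With a mean RPKM of at least 1 the shares were 14.5% and 20.1%. The counts of each list are to be read beside these shares. Catenins were close to level. Of 10 catenin genes, 2 had intervals that were higher in Klf9-OE without overlap and none was lower, and the list median was 0.034. Ctnnb1, which encodes beta-catenin, was at 194 RPKM in control (187 to 200.5) and 189 in Klf9-OE (182 to 195.4). The higher ones were Jup, which encodes plakoglobin, at 2.68 (2.39 to 2.96) and 3.41 (3.11 to 3.70), and Ctnnd1, which encodes p120-catenin, at 27.0 (25.9 to 28.1) and 30.03 (29.0 to 31.1). Ctnna2, the alpha-catenin of neurons, was at 1.98 (0.838 to 3.12) and 1.01 (0.827 to 1.19), which overlapped.

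Of 23 adaptors that link integrins to actin, 4 were higher and 4 lower without overlap, with a median of 0.044. Parvb, which encodes beta-parvin, was at 4.15 RPKM in control (3.73 to 4.56) and 2.30 in Klf9-OE (2.01 to 2.58). Its relative Parva was at 3.94 (3.54 to 4.35) and 5.78 (5.37 to 6.18). Parvb and Parva thus differed in opposite directions. Sharpin, an inhibitor of integrin activation, was listed at 0 in control and at 10.6 RPKM (9.57 to 11.6) in Klf9-OE. Its control interval ran from 0 to 0, so any Klf9-OE interval that lies above 0 meets the call. The estimate was not flagged as failed, and why it was listed at 0 was not tested. Pxn, which encodes paxillin, and Actn4 were also higher, and Ilk, Tns3 and Actn1 also lower. Ilk, which encodes integrin-linked kinase, was at 66.8 RPKM (63.7 to 69.97) and 55.6 (52.5 to 58.7).

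Of 19 integrin ligand genes, 5 were higher and 4 lower without overlap, with a median of 0.097. Nid1, which encodes the basement membrane protein nidogen, was at 8.53 RPKM in control (8.07 to 9.0) and 25 in Klf9-OE (23.8 to 26.3), a difference of 1.54. Vcam1, a ligand of receptors that contain the chains of Itga4 or Itga9, was at 0.591 (0.427 to 0.755) and 1.45 (1.2 to 1.71). Fn1, which encodes fibronectin, was lower, at 128 (123 to 134) and 109 (104 to 114), as were Fbln1, Npnt and Tnc. Thbs1, which encodes thrombospondin-1, was higher, at 4.12 (3.79 to 4.45) and 7.68 (7.19 to 8.18), as were Spp1, which encodes osteopontin, and Cyr61.

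Of 7 genes for repressors of cadherin transcription, 1 was higher and 1 lower without overlap. Their median was 0.30, and it was -0.12 over the genes with a mean RPKM of at least 1. Zeb1, a repressor of Cdh1, was at 5.17 RPKM in control (4.80 to 5.54) and 6.38 in Klf9-OE (5.85 to 6.90). Tcf3 was at 97.8 (94.8 to 101) and 84.1 (81.5 to 86.6), and Snai3 at 1.63 (1.21 to 2.05) and 2.49 (2.03 to 2.96), which overlapped. Of 20 protocadherins, desmosomal cadherins and other relatives, 5 were higher and 4 lower without overlap, with a median of 0.11. Pcdh17 was at 1.31 RPKM (1.17 to 1.46) and 2.28 (2.11 to 2.45), and Pcdh1 at 1.23 (1.01 to 1.45) and 1.96 (1.71 to 2.22). Of this list, Pcdh7 was called 2-fold higher, at 0.388 (0.287 to 0.490) and 1.17 (0.991 to 1.34), and Dchs1 2-fold lower, at 1.47 (1.26 to 1.69) and 0.496 (0.420 to 0.572). Fat1 and Dsg2 were also higher, and Celsr2, Celsr3 and Clstn1 also lower.

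**Figure D5:**
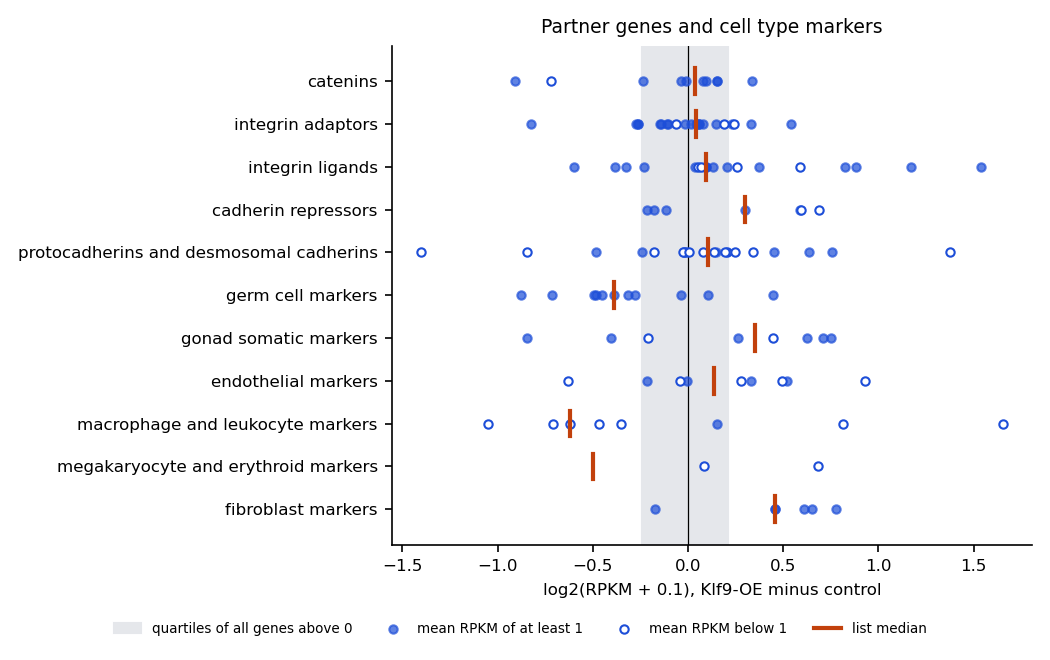
Difference in log2(RPKM + 0.1), Klf9-OE minus control (x axis), of genes in each list that were above 0 in both libraries, filled where the mean RPKM is at least 1. Orange bars are list medians over genes above 0 in at least 1 library, the grey band spans the quartiles of all genes. The germ cell median is at -0.39 and the fibroblast median at 0.46.

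Markers of germ cells and of other cells were also measured, since in bulk RNA fewer cells of a type and less RNA per cell cannot be told apart. Their counts, too, stand beside 11.2% of all genes higher and 14.4% lower without overlap. With a mean RPKM of at least 1 these shares were 14.5% and 20.1%. All 11 germ cell markers were present, led by Pou5f1 at 387 RPKM in control (375 to 399) and 277 in Klf9-OE (267 to 287) and Dazl at 351 (340.2 to 363) and 378 (366 to 390). Of these markers 8 were lower and 2 (Dazl and Sox2) higher without overlap, and the summed RPKM was 1567 in control and 1332 in Klf9-OE. Ddx4 was close to level, at 300 (287 to 313) and 292 (280 to 305), with intervals that overlapped. The markers with the largest differences were Nanog, at 11.7 RPKM and 6.30, and Dppa3, at 294 and 179. Cdh1, itself a gene of germ cells, was lower in the same library as 8 of the 11 markers, while Ddx4 and Dazl were not lower without overlap. The part of cell composition in the difference of Cdh1 was not tested.

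Of 7 fibroblast markers, 4 were higher and none lower without overlap, and their summed RPKM was 19.9 in control and 27.7 in Klf9-OE. Col1a1 was at 9.09 RPKM (8.55 to 9.63) and 12.5 (12.0 to 13.1), Col3a1 at 5.26 and 8.08, Col1a2 at 1.03 and 1.68, and Pdgfrb at 1.06 and 1.89. Of 10 gonad somatic markers, 5 were higher (Amh, Gata4, Wt1, Lhx9 and Star) and 1 lower (Sox9), with sums of 21.7 and 30.7. Amh was at 5.99 RPKM and 9.29, Gata4 at 6.21 and 7.47, and Sox9 at 2.04 and 1.09, while Star was listed at 0 in control and at 2.39 in Klf9-OE. The control interval of Star ran from 0 to 0, so any Klf9-OE interval that lies above 0 meets the call. Nr5a1, Foxl2 and Cyp17a1 of the gonad list and Thy1 of the fibroblast list had differences below 0 with overlapping intervals. The sums of both lists were higher in the library in which Cdh2, Cdh5 and Cdh20 were higher, the difference of Cdh20 being uncertain. Cdh11, typical of mesenchyme, was not higher, at 1.17 RPKM in control and 1.10 in Klf9-OE. Nor was Itga11, a chain of fibroblasts, at 1.19 and 0.893. Both had overlapping intervals. The part of other cells in the differences of these members was not tested.

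Endothelial markers were set beside Cdh5. Of 10 markers, 1 was higher (Pecam1) and 2 lower (Tek and Vwf) without overlap, with sums of 35.2 RPKM in control and 43.8 in Klf9-OE. Pecam1, which PGCs also express, was at 16.8 (15.8 to 17.9) and 24.2 (20.9 to 27.4), and Egfl7 at 8.10 (6.92 to 9.27) and 10.2 (9.01 to 11.4). Kdr was at 0.367 RPKM (0.266 to 0.468) and 0.465 (0.361 to 0.569), Tek at 0.735 (0.574 to 0.896) and 0.439 (0.327 to 0.550), and Emcn was at 0.0298 in control and listed at 0 in Klf9-OE. The part of endothelial cells in the difference of Cdh5 was not tested. Of 11 macrophage and leukocyte markers, 1 (Csf1r) was higher and 3 (Lyz2, C1qb and Spi1, listed at 0 in Klf9-OE) lower, with sums of 7.05 and 6.03. Their median was -0.62, and Cd68, at 3.69 and 4.11, was the only one with a mean RPKM of at least 1. Csf1r was at 0.307 (0.196 to 0.417) and 1.18 (0.834 to 1.53). Of 6 megakaryocyte and erythroid markers, none had intervals that separated the libraries, Pf4 was listed at 0 in both, and the highest were Gp1ba at 0.431 and 0.754 (0 to 21.01) and Alas2 at 0.532 and 0.570.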

How the data were processed

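PGCs were sequenced as 1 control and 1 Klf9-OE library. The authors aligned the single-end reads by TopHat2 and Bowtie against mm10, and Cufflinks gave the expression values (versions are not given in the sources used here). The deposited values are FPKM with the bounds of a 95% interval, and for single-end reads FPKM is the RPKM of the paper. The authors' Cufflinks run also assembled loci in each library separately, so the bounds of 7 members differ between the files.

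RPKM and interval bounds of rows with the same symbol were summed, 6 symbols with a failed estimate were left out, and starts were written 1-based. Read totals are not in the columns used. The reads an interval implied were derived from its relative width, read as 2 Poisson standard deviations, and cover counting error only. Genes above 0 in at least 1 library numbered 18737. With 1 library per group no test, no p-value and no leaving out of libraries was possible.

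The members and lists were chosen with earlier results of these data known. Named were members with a mean RPKM of at least 1, members listed at 0 in both libraries, Klf9, the 2 largest differences of each other list among genes with a mean RPKM of at least 1, and the 2 highest markers of each cell type. Every other gene was named after its values were seen. The alternatives were other pseudocounts, scalings, filters and thresholds, the largest row of a symbol and widened intervals. The calls were tested on simulated Poisson counts with 4-fold changes in well-counted genes. The simulation held no smaller changes, no excess of even counts and no loci that differ between libraries, so it does not bear on those. Protein sequences were not used here. Software was Python 3.11.15, numpy 2.4.6, pandas 2.3.3 and, for plots, matplotlib 3.10.9.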

Additional observations from a re-analysis of the deposited data

Results flagged for a closer look

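Loci to which Cufflinks gave no gene name entered no comparison. Inside the bounds of the members there were 2 such loci in the Klf9-OE library and 1 in the control library, among 15127 and 6482 unnamed loci in all. Those of Klf9-OE lay in Cdh24, described with that gene, and in an intron of Cdh5 (chromosome 8, 104117126 to 104117407), at 7.79 RPKM (4.47 to 11.1) and with 22 implied reads. The locus of the control library lay in an intron of Itgb7 (chromosome 15, 102224961 to 102225447), at 1.41 RPKM (0.561 to 2.26). The count was higher in Klf9-OE than in control. As a share of all unnamed loci it was lower, 0.0132% against 0.0154%.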

How the results depend on the processing

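No paired analysis was possible because each group had 1 library, and for the same reason no library could be left out. Members at least 2-fold higher numbered 3. They were 5 with a pseudocount of 0.01, 1 with a pseudocount of 1, 7 with no pseudocount, 5 with RPKM rescaled to the same sum, 1 with a mean RPKM of at least 1, and 0 with a 4-fold threshold. Members at least 2-fold lower numbered 0, and 5 with a pseudocount of 0.01 or none, namely Itga2 and the 4 listed at 0 in Klf9-OE. Members higher without overlap numbered 7, and 4 with a mean RPKM of at least 1. Over all genes, 847 were at least 2-fold higher and 750 lower. With a pseudocount of 0.01 they were 1688 and 1637, with a pseudocount of 1 they were 308 and 288, and with none 1841 and 1768. With a mean RPKM of at least 1 they were 397 and 383, with RPKM above 0 in both libraries 518 and 448, and at 4-fold 261 and 186. The median of the megakaryocyte and erythroid list was -0.50, and -2.36 with a pseudocount of 0.01. The cadherin median was -0.18, and it was -0.42 with a pseudocount of 0.01, -0.04 with a pseudocount of 1 and -0.07 with a mean RPKM of at least 1. Each alternative changed the offset, the scaling between libraries, the genes counted or the threshold. The median over all members was 0.0014 and changed sign with a pseudocount of 1 (-0.00048). The macrophage list had the opposite sign (0.15) when only genes with a mean RPKM of at least 1 entered, which left 1 gene. Moves of named members were set against the distance from the middle to the bound of the interval of each difference. Of 150 values of 25 named members, 147 moved by less than that distance. Those that moved further were Cdh23 with a pseudocount of 1 (0.44) and Cdh26 with 0.01 (2.61) and 1 (0.24). No member with intervals that did not overlap turned to the opposite direction, but these settings could not have turned one. A pseudocount cannot change the sign of the difference of a gene. The scalings shifted differences by at most 0.062, and the smallest difference of these members was 0.12, that of Itgb1. Taking the largest row of a symbol left the values of the named members as they were. A few implied reads set the values of the weakest members, such as Cdh26 in control and Cdh6, Cdh7, Cdh9 and Cdh19.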
